A study of Mus musculus with 8 samples.

Results

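Collagens are the main structural proteins of connective tissue, and this account follows the genes of their chains in the large intestine of mice that carried a gut community with or without a butyrate-producing bacterium. The members are all rows of the deposited gene table whose symbol has the form of a collagen chain, Col followed by a type number, the letter a and a chain number. There were 41 such rows among 17041 genes, sorted into 11 fibrillar chains, 8 chains of basement membranes and 22 other chains. Of these, 26 had a mean normalized value of at least 10 over the 8 libraries and were tested (8 fibrillar, 6 basement membrane and 12 other), and 15 lay under that limit.

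The mice were ApoE knockouts, which lack apolipoprotein E and are prone to atherosclerosis, and were bred without germs and later colonized. Mice of the core group (n = 3 libraries) received a bacterial mixture that makes no butyrate, by gavage at 8 weeks of age. Those of the R. intestinalis group (n = 5 libraries) received that mixture plus Roseburia intestinalis. The proximal large intestine was taken at 26 weeks of age, frozen, and read as poly(A) RNA on stranded libraries. The labels do not say whether a library is 1 mouse, which mice shared an isolator, or which diet they ate, so the p-values measure the spread between these samples.

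A collagen molecule is a rope of chains wound around each other, made in the endoplasmic reticulum, trimmed outside the cell and then crosslinked. Fibrillar collagens such as types I, III and V form the load-bearing fibrils of the submucosa and of the layers around muscle. Type IV collagen forms the sheet-like network of basement membranes under epithelium and around vessels and muscle cells. The other types coat fibrils, form beaded filaments, span the cell membrane or build short-chain networks. In a gut wall sample, fibroblasts and smooth muscle cells make most of them, and fewer such cells cannot be told apart from less collagen RNA per cell.

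Depth, estimated from the step on which low values lie, ran from 4606077 to 15348853 reads per library. Markers of epithelium and of smooth muscle were present, which does not tell the proximal large intestine from other gut segments. The 7 epithelial markers summed to between 72986 and 99617 and the 7 smooth muscle markers to between 86234 and 177520 per library, with none of them at 0. The libraries also differed in how their values depended on GC content, the share of G and C bases in a transcript. The log2 deviation per 10 points of GC over 12857 genes was −0.30, 0.07 and −0.29 in the 3 core libraries. It was 0.56, −0.32, 0.04, 0.01 and 0.22 in the 5 R. intestinalis libraries, so R. intestinalis replicate 1 had the steepest slope. Collagen transcripts are rich in GC (median 56.2% against 49.9% for all genes), so the collagen results are given also after a GC correction, an alternative added after the data were seen.

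The comparison asks whether collagen RNA in the gut wall differed once R. intestinalis was part of the community. Mean values were lower with R. intestinalis in most collagens, with the groups apart in the fibrillar chains Col1a2 and Col3a1 and in Col28a1. The tested type VI chains had higher means but overlapping groups. After the GC correction the log2 difference was −0.08 for Col6a1 and 0.03 for Col6a2. No collagen gene passed the threshold of the test (limma, Benjamini-Hochberg adjusted p of 0.05 over 13020 genes). The smallest adjusted p among the collagens was 0.588, with 0 of 26 past the threshold beside 0 genes of the whole table (0%). At an unadjusted p under 0.05, 5 collagens were lower with R. intestinalis (19.2% of the 26, against 3.69% of all genes tested), namely Col1a2, Col3a1, Col5a2, Col8a1 and Col28a1. In the other direction, Col24a1 was the 1 collagen with such a p (4.44% of all genes tested; 8.13% in either direction). The groups of libraries did not overlap in 3 collagens, all of them lower with R. intestinalis (3.31% of all genes tested), and in 0 that were higher (2.53%; 5.84% in either direction). The log2 difference lay below 0 in 17 of 26 collagens (50.4% of all genes tested), with a median of −0.19 against −0.00347 for all genes tested. That median was −0.0676 without core replicate 2, −0.0714 without R. intestinalis replicate 2, −0.29 without core replicate 3 and −0.2904 without R. intestinalis replicate 1. Among the 26, Col8a2, below 0, passed the limit of 10 only through core (mean 15.6, against 8.62 with R. intestinalis). Col13a1, above 0, passed it only through R. intestinalis (mean 13.7, against 8.14 in core).

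These counts moved with single libraries. The 5 lower collagens became 2 without core replicate 1 (Col1a2 and Col28a1), 3 without core replicate 2 (Col1a2, Col3a1 and Col28a1) and 8 without R. intestinalis replicate 1. The 3 collagens with groups apart became 6 without core replicate 3. With a core library left out, groups come apart more easily in any gene. The shares over all genes were not taken for these settings, so the counts are not read as particular to collagens. After the GC correction, 11 collagens were lower at an unadjusted p under 0.05 (4.57% of all genes) and 0 higher (4.35%, and 8.92% in either direction). Of the 11, 5 were those named above, and Col8a2, which passed the limit only through its core values, was another. The correction set 6 collagens apart, all lower (3.01% of all genes), and 0 higher (2.71%; 5.72% in either direction). It put 23 of 26 below 0 (50% of all genes) and moved the median to −0.45, but 0 passed the adjusted threshold (smallest adjusted p 0.546).

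**Figure D1:**
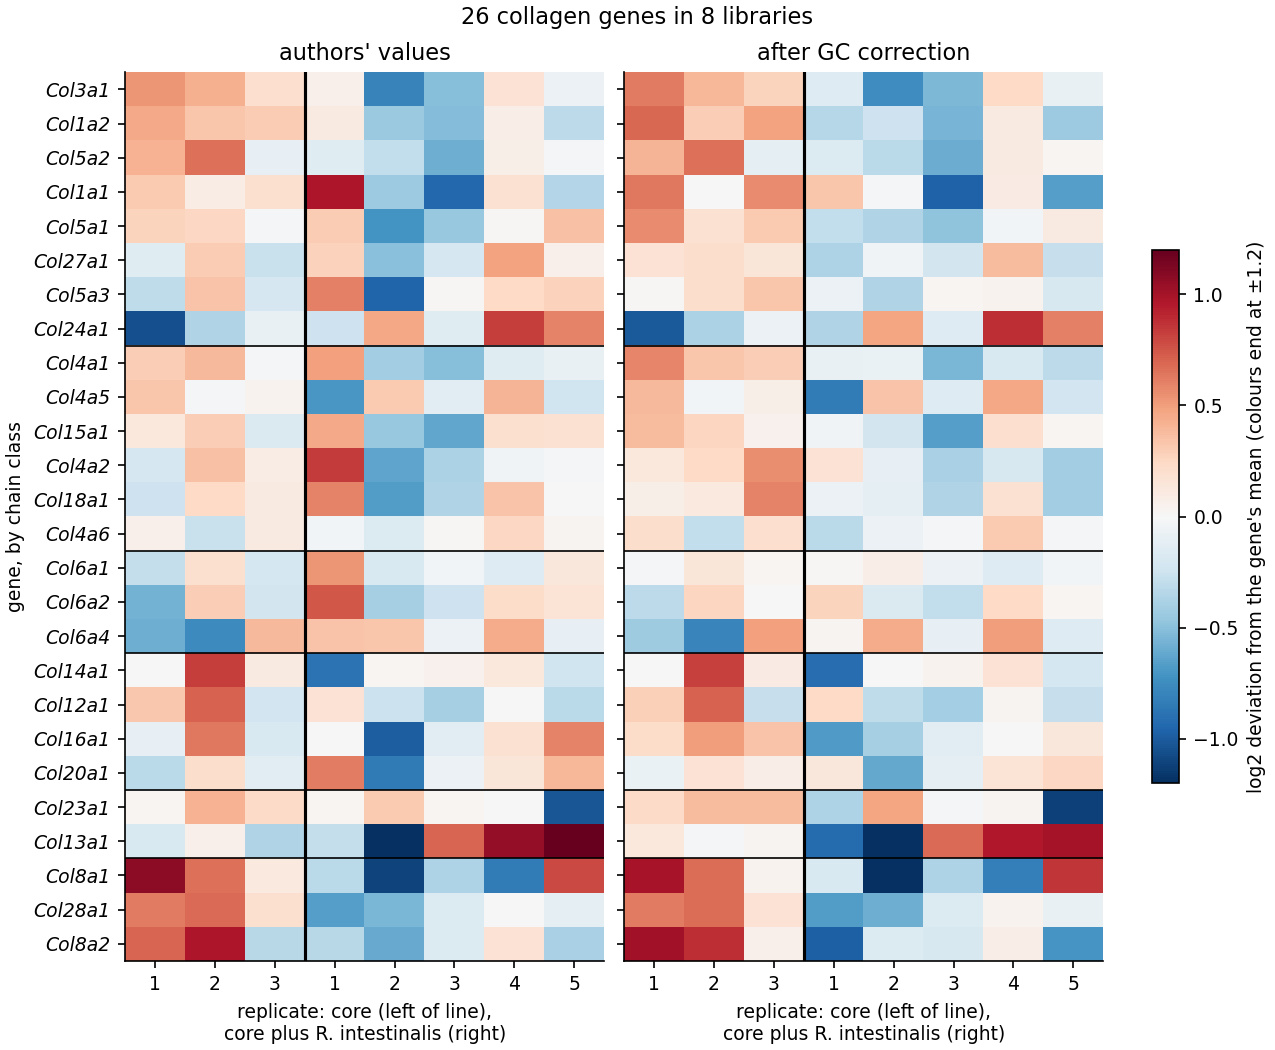
Each cell is the log2 deviation of a gene from its own mean over the 8 libraries, for the 26 tested collagens in rows grouped by chain class and the libraries in columns (core left of the line, n = 3; R. intestinalis right, n = 5), with the authors' values at left and after GC correction at right. With the authors' values 17 genes have a lower mean log2 value with R. intestinalis, and after GC correction 23 do.

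The stretches of DNA just before the start sites are shown for the lower genes that had an entry in the promoter table, with Col6a1, a type VI chain with a higher mean, for comparison. They are the 250 bases before the RefSeq start on GRCm38.p6, on the strand of the gene; the deposited values were made with another build, mm9, and were matched by symbol. An entry was found for 33 of the 41 collagens and not for Col4a3, Col1a1, Col5a2, Col2a1, Col12a1, Col14a1, Col9a3 and Col22a1. Capitals mark 3 of the 4 motifs searched on both strands. The first is CCAAT, the box bound by NF-Y. The second is TATAAA, a core promoter box. The last is CAGACA, which holds the box that SMAD proteins bind. No 2 of the marked motifs overlap.
Col1a2, chr6:4505368-4505617 (+ strand): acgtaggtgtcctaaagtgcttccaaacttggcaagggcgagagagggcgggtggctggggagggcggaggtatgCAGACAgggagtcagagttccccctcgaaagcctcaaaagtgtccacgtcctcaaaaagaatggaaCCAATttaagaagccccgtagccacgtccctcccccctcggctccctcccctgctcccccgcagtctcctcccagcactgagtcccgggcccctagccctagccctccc
Col3a1, chr1:45311288-45311537 (+ strand): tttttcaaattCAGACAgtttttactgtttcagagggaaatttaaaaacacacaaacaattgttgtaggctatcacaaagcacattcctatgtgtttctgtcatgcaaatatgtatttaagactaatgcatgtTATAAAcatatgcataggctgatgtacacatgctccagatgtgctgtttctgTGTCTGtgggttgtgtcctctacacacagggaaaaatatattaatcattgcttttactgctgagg
Col28a1, chr6:8192618-8192867 (- strand): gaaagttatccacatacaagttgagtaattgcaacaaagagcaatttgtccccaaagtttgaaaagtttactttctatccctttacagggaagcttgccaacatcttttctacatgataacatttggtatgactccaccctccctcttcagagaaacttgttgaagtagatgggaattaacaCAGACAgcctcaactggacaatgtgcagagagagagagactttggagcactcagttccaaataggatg
Col8a1, chr16:57754738-57754987 (- strand): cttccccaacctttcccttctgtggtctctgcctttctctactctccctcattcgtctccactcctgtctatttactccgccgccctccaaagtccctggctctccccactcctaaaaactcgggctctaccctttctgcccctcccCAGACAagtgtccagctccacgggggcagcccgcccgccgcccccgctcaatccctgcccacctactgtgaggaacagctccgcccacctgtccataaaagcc
Col6a1, chr10:76726045-76726294 (- strand): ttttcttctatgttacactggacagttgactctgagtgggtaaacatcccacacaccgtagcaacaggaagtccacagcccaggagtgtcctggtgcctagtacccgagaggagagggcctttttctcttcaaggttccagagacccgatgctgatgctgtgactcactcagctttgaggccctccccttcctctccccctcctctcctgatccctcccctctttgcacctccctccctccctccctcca

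CAGACA was present in all 4 of the lower genes that have a window and absent from the Col6a1 window. It begins 175 bases before the start in Col1a2, 239 and (on the other strand) 65 in Col3a1, 68 in Col28a1 and 103 in Col8a1. CAGACA is held by 17.1% of all 32851 windows of this length and by 9 of the 36 collagen windows. It was also in Col5a1 (log2 difference −0.27), Col18a1 (−0.05) and Col20a1 (0.13), none with an unadjusted p under 0.05. Col7a1 and Col9a2, which were not tested, held it too. The motif thus did not separate the lower collagens from the rest, and it was chosen after the values were seen. CCAAT was found in Col1a2, at 109 bases, and in 33.8% of all windows. TATAAA was found in Col3a1, at 117 bases, and in 12.4%. The motif not marked, GGGCGG, a GC box, was in 21 of the 36 collagen windows against 32.7% of all windows. A match describes letters and shows no binding.

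Per kilobase of the longest protein-coding transcript, Col3a1 was the highest collagen in these libraries, with a mean normalized value of 379 per kb (SD 108, n = 8 libraries). Col6a1 came next at 116 per kb, Col4a1 at 92.1, Col1a2 at 84.6, Col4a2 at 55.8 and Col1a1 at 54.8. The lowest Col3a1 library, at 209 per kb, was above the highest of Col6a1, at 166, whereas the ranges of Col6a1, Col4a1 and Col1a2 overlapped. Summed over the 41 rows, without length scaling, collagen values lay between 6568 and 8148 in the core libraries, against 4387 and 7526 with R. intestinalis. Col3a1 made up 33.4% to 37.9% of that sum in core and 26.5% to 34.8% in R. intestinalis libraries.

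Col3a1 encodes the single chain of type III collagen, the compliant fibril of distensible organs. Its normalized value was 2921, 2723 and 2335 in core replicates 1 to 3 and 2113, 1162, 1424, 2284 and 1930 in the R. intestinalis libraries. All core libraries lay above all others, although the lowest core and the highest R. intestinalis value were close. The log2 difference, R. intestinalis minus core on the log2(value + 1) scale, was −0.62 (SE 0.217, limma unadjusted p = 0.0169, adjusted p = 0.588).

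Col1a2 encodes the α2 chain of type I collagen, the main tensile fibril. It stood at 603, 554 and 543 in core and at 472, 324, 306, 465 and 354 in the R. intestinalis libraries. The 3 core values were close together and did not overlap with the others. The log2 difference was −0.58 (SE 0.173, limma unadjusted p = 0.00685, adjusted p = 0.588), and the unadjusted p stayed under 0.05 in all 18 alternative settings (largest 0.031). In the authors' deposited table its posterior probability of differential expression was 0.89 and its fold change 0.68.

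Col1a1, whose chain joins Col1a2 in type I collagen, did not set the groups apart. It was 378, 321 and 346 in core and 594, 223, 157, 343 and 236 in the R. intestinalis libraries. R. intestinalis replicate 1 held the highest value of all 8 and replicate 3 the lowest. The log2 difference was −0.32 (SE 0.35, limma adjusted p = 0.723), and it was −0.64 after the GC correction (SE 0.289, limma unadjusted p = 0.0492).

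Type V collagen regulates how thick type I fibrils grow. Col5a2 was 384, 458 and 269 in core and 260, 234, 191, 302 and 286 in the R. intestinalis libraries, and core replicate 3 lay among the latter. Its log2 difference was −0.52 (SE 0.207, limma unadjusted p = 0.0296, adjusted p = 0.588). Col5a2 is the protein-coding gene next to Col3a1 on chromosome 1. Col5a1 had a log2 difference of −0.27 (limma adjusted p = 0.689) and Col5a3 of 0.09 (adjusted p = 0.934).

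Of the 3 fibrillar chains above 0, Col24a1, a minor fibrillar collagen, was the 1 with an unadjusted p under 0.05. It was 9.52, 16.0 and 19.5 in core and 17.4, 29.1, 18.7, 37.8 and 32.0 in the R. intestinalis libraries. The groups overlapped, core replicate 1 was the lowest, and values near 10 rest on few reads. The log2 difference was 0.80 (SE 0.352, limma unadjusted p = 0.0451, adjusted p = 0.588), and the unadjusted p was under 0.05 in 8 of 17 alternatives. Col27a1 stayed near 0 at 0.06. Over the 8 tested fibrillar chains the median log2 difference was −0.29, with 5 below 0, and after the GC correction it was −0.54, with 7 below 0. It was −0.14 without R. intestinalis replicate 3, −0.17 without replicate 2 and −0.45 without replicate 1 of that group.

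**Figure D2:**
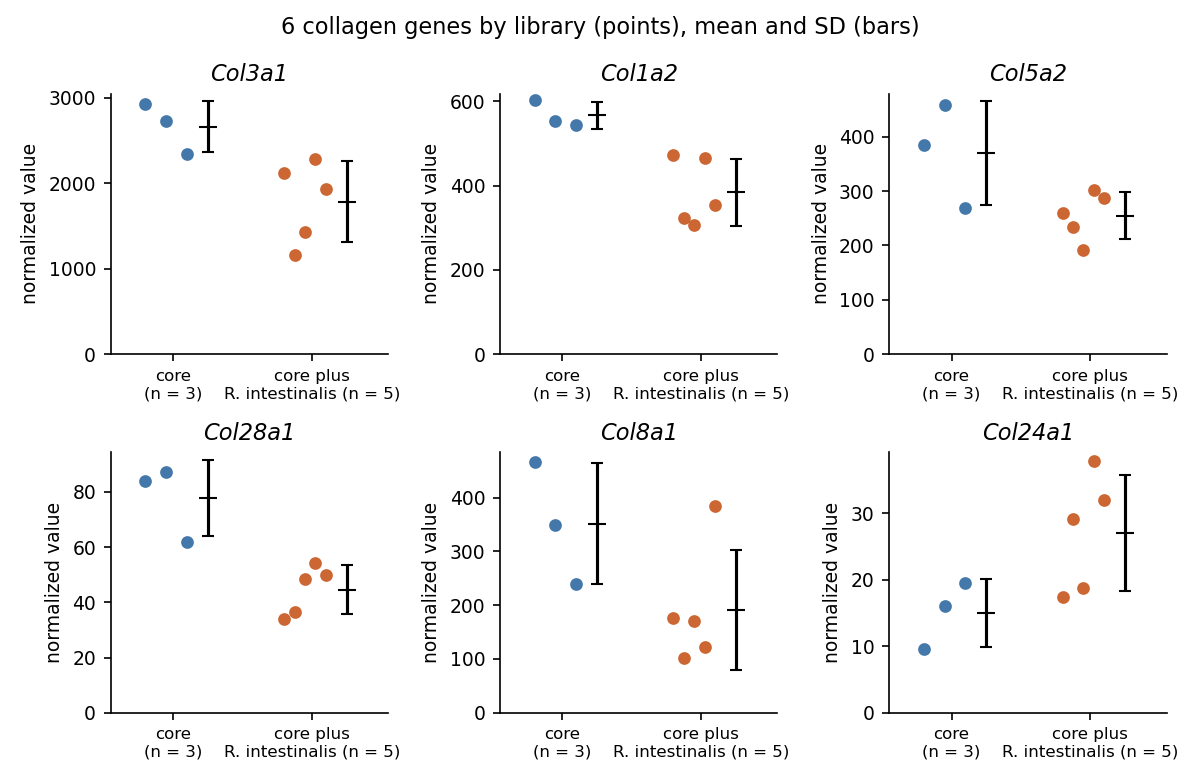
Normalized values (vertical axes, from 0) of the 6 collagens with an unadjusted p under 0.05, 1 point per library, with mean and SD as bars (core n = 3, R. intestinalis n = 5). In Col3a1, Col1a2 and Col28a1 the groups do not overlap, Col8a1 has 1 R. intestinalis library at 384 apart from the rest, and Col24a1 has the higher mean with R. intestinalis.

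In the basement membrane chains the groups overlapped throughout. Col4a1 and Col4a2, neighbours on chromosome 8 whose chains form the common type IV trimer, were the highest of the class. Col4a1 was 725, 776 and 588 in core and 831, 443, 416, 536 and 557 in the R. intestinalis libraries. Col4a2 was 300, 439 and 365 in core and 614, 221, 264, 334 and 341 in the R. intestinalis libraries. In both genes R. intestinalis replicate 1 was the highest of all 8 libraries, and the groups overlapped.

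The log2 difference was −0.36 for Col4a1 (SE 0.216, limma adjusted p = 0.606) and −0.13 for Col4a2 (SE 0.289, adjusted p = 0.868). After the GC correction both were lower at an unadjusted p under 0.05 (4.57% of all genes). Groups were then apart in Col4a1 (3.01% of all genes were lower and apart). The corrected difference was −0.65 for Col4a1 (SE 0.137, limma unadjusted p = 0.000706) and −0.49 for Col4a2 (SE 0.162, limma unadjusted p = 0.0119). Col4a5 and Col4a6, which pair in the basement membranes of smooth muscle, had log2 differences of −0.19 and 0.05. Col15a1 and Col18a1, which link basement membranes to the matrix beneath, had −0.13 and −0.05. The median over the 6 tested chains was −0.13, with 0 at an unadjusted p under 0.05, and −0.39 after the GC correction, with 2. It lay between −0.2306 (without R. intestinalis replicate 1) and −0.0048 (without replicate 2 of that group), and was −0.0161 without replicate 3 and −0.0467 without core replicate 2. Col4a3 and Col4a4, known from the kidney filter and the lung, were near the floor, at means of 4.48 and 2.86.

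Type VI collagen, which forms beaded filaments close to cells, was the class in which no tested chain had a lower mean, before the GC correction. Col6a1 was 386, 534 and 404 in core and 680, 413, 459, 422 and 516 in the R. intestinalis libraries. Col6a2, its neighbour on chromosome 10, was 140, 254 and 178 in core and 349, 156, 174, 242 and 233 in the R. intestinalis libraries. The groups overlapped in both genes, with R. intestinalis replicate 1 the highest. The log2 differences were 0.16 for Col6a1 (SE 0.189, limma adjusted p = 0.731), 0.26 for Col6a2 (SE 0.276, adjusted p = 0.713) and 0.51 for Col6a4 (SE 0.279, adjusted p = 0.593). After the GC correction they were −0.08, 0.03 and 0.38. Col6a3, the largest chain of the common type VI trimer, was not analysed here.

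Fibril-associated collagens sit on the surface of fibrils. Col12a1, a coat protein of type I fibrils in tissues under tension, was 340, 445 and 231 in core and 306, 228, 205, 273 and 217 in the R. intestinalis libraries. Col14a1, a related coat protein, was 85.7, 154 and 93.0 in core and 46.1, 87.3, 89.1, 94.4 and 72.9 in the R. intestinalis libraries. Core replicate 2 was the highest library in both genes, and the groups overlapped. The log2 differences were −0.43 for Col12a1 (SE 0.221, limma adjusted p = 0.588) and −0.50 for Col14a1 (SE 0.283, adjusted p = 0.599). Col16a1 had −0.19 and Col20a1 0.13.

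Among membrane-spanning collagens, Col23a1 was 110, 144 and 126 in core and 110, 134, 109, 107 and 52.4 in the R. intestinalis libraries. The groups overlapped, and replicate 5 of R. intestinalis was the lowest. Its log2 difference was −0.36 (SE 0.28, limma adjusted p = 0.648). Col13a1, found at cell-matrix and nerve-muscle contacts, was 7.94, 9.58 and 6.89 in core and 7.34, 1.08, 15.5, 20.1 and 24.3 in the R. intestinalis libraries. Its values in the second group spanned those of core on both sides, and its log2 difference of 0.26 had an SE of 0.728.

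All 3 tested chains of the remaining types had lower means, but Col8a2 passed the limit of 10 only through its core values. The untested Col7a1 (4.54 in core, 5.22 with R. intestinalis) and Col10a1 (0 and 0.092) had higher means, near the floor. Col28a1, a beaded-filament-like collagen known from peripheral nerve sheaths, was 84.1, 87.3 and 61.99 in core and 34.1, 36.7, 48.4, 54.3 and 49.9 in the R. intestinalis libraries. The groups did not overlap. Its log2 difference was −0.79 (SE 0.233, limma unadjusted p = 0.00631, adjusted p = 0.588), nearly the same after the GC correction (−0.78). It was the 1 collagen called in the authors' deposited table at a posterior probability of at least 0.95, with 0.99 and a fold change of 0.57, in a table where 0.288% of genes were called lower and 0.481% in either direction. At a threshold of 0.9 it was again the 1 collagen, beside 0.399% of genes called lower and 0.616% in either direction. Of the markers of enteric glia and Schwann cells, cells of the nerve sheath, 5 of 6 tested were below 0 (50.4% of all genes tested). The median of the 6 was −0.25, with none of them at 0. At an unadjusted p under 0.05, 0 were lower and 1 was higher. Those below 0 include Gfap, with groups apart (−0.50, against 3.31% of all genes tested), and S100b (−0.67). Erbb3, which epithelium also expresses, was higher with groups apart (0.98, limma unadjusted p = 0.00468), against 2.53% of all genes tested. It carried the sum of all 7. That sum was also higher without overlap, at 511 to 622 in core and 651 to 1215 in R. intestinalis libraries. Without Erbb3, an unplanned sum, the range was 215 to 257 in core and 127 to 261 with R. intestinalis. The part of these markers in the Col28a1 difference was not tested.

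Col8a1 and Col8a2 encode the chains of type VIII collagen, a short-chain network collagen of vessel walls and smooth muscle. Col8a1 was 465, 349 and 240 in core and 176, 101, 171, 123 and 384 in the R. intestinalis libraries. Of the latter, 4 lay below every core library and replicate 5 lay within the core range. The log2 difference was −0.99 (SE 0.384, limma unadjusted p = 0.0267, adjusted p = 0.588). Col8a2, near the lower limit of the test, averaged 15.6 ± 6.82 (SD, n = 3) in core and 8.62 ± 2.02 (SD, n = 5) in the R. intestinalis libraries, with a log2 difference of −0.71 (SE 0.383).

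**Figure D3:**
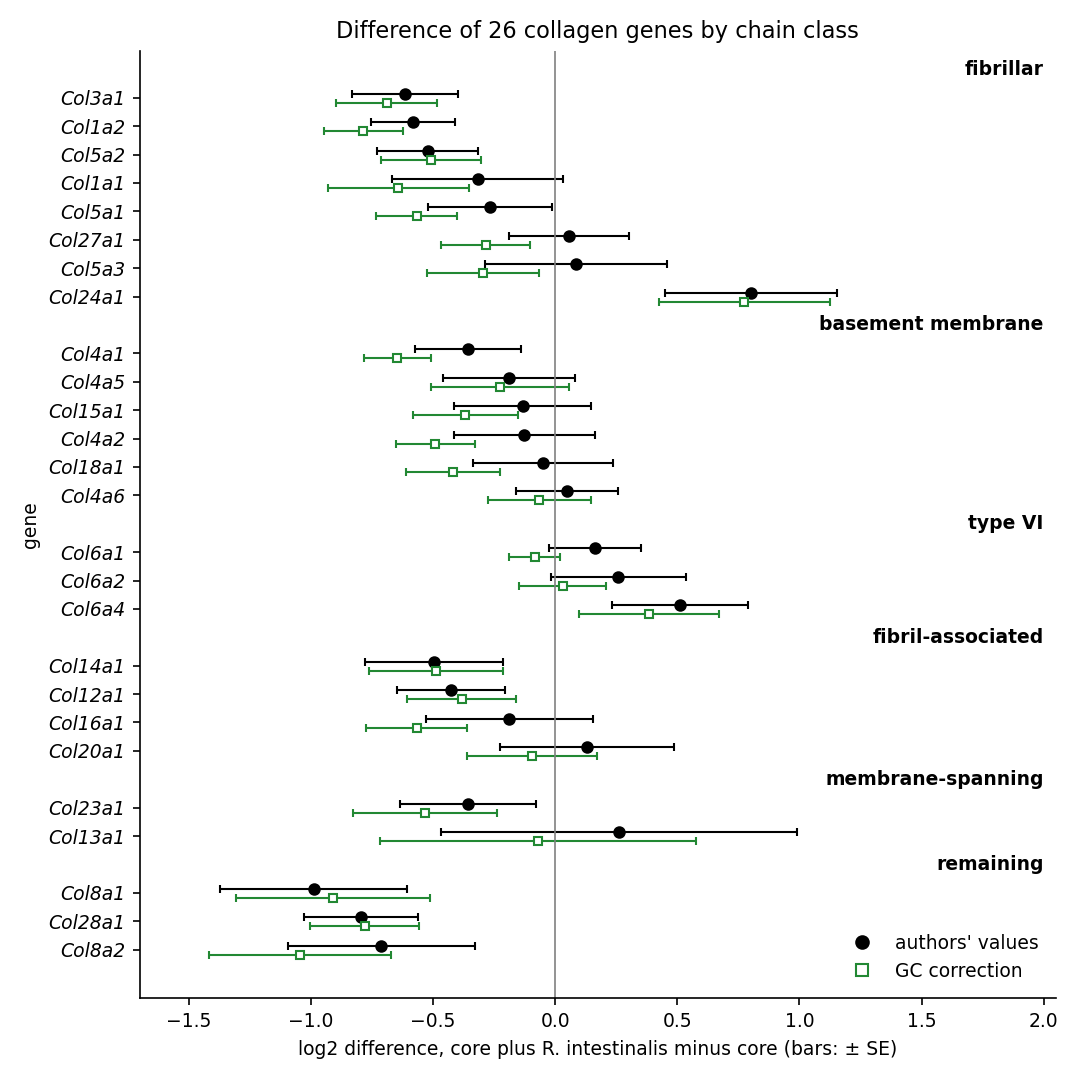
Log2 difference, R. intestinalis minus core, with its standard error for the 26 tested collagens by chain class, from the authors' values (filled circles) and after GC correction (open squares). Col8a1 has the lowest value, −0.99, and Col24a1 the highest, 0.80, and with the authors' values the 3 type VI chains all lie above 0.

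The 15 collagens under a mean of 10 are given without a test. They are Col2a1, Col11a1 and Col11a2 of the fibrillar class, Col4a3 and Col4a4, the fibril-associated Col9a1, Col9a2, Col9a3, Col19a1 and Col22a1, the membrane-spanning Col17a1 and Col25a1, and Col6a6, Col7a1 and Col10a1. The highest of them was Col11a1, a minor fibrillar chain, at a mean of 8.48. Col7a1, the anchoring fibril of the skin, averaged 4.96, and Col25a1 3.40. Col2a1, the collagen of cartilage, was listed at 0 in 6 of 8 libraries and Col10a1, of the growth plate, in 7. Col17a1, the hemidesmosome collagen of stratified epithelium, had a mean of 0.715 and was at 0 in 3.

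Transcript GC content and the difference between groups were related over the whole table, which bears on how the collagens are read. Genes between 58% and 62% GC had a median log2 difference of 0.38 (1071 genes), those between 46% and 50% of −0.06 (2778 genes). The 9 collagens in the first range had a median of −0.13 and the 5 in the second of −0.52. Across the 26 collagens Pearson's r between GC and the log2 difference was 0.33, and −0.04 after the correction, a description over genes that share the same 8 libraries. The median standard error of the 26 collagens was 0.279 before and 0.218 after the correction, and it was smaller in 20 of them. Over all genes it also fell, from 0.223 to 0.191. The correction removes spread that follows GC, so neither the smaller errors nor the r near 0 speaks for the corrected differences. Transcript length was not related in the same way (r = 0.05 with log2 length).

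**Figure D4:**
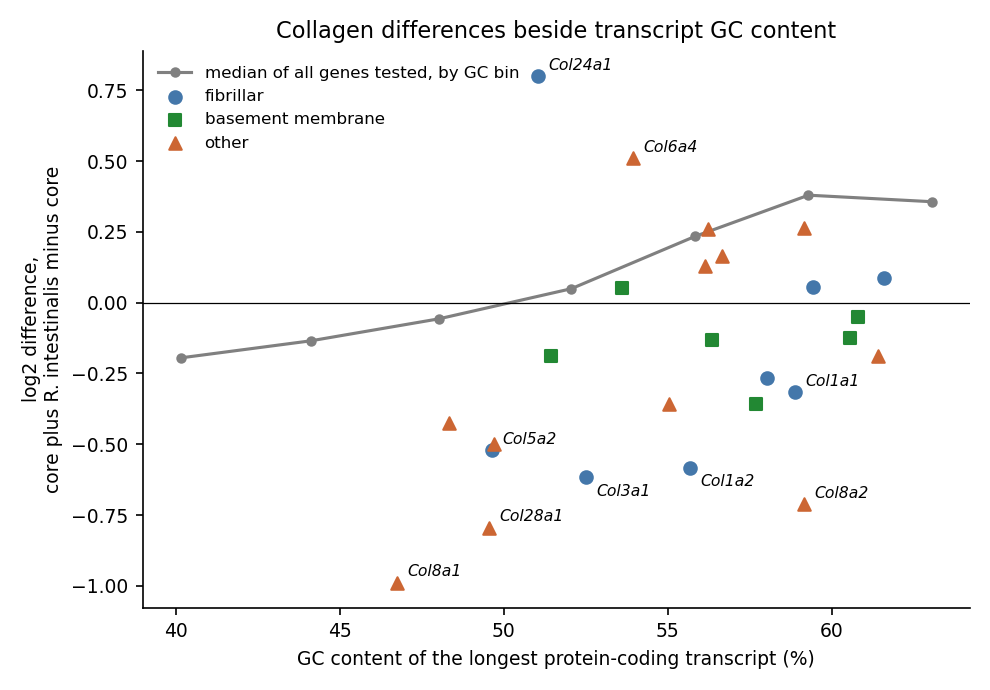
Log2 difference, R. intestinalis minus core, of the 26 tested collagens against the GC content of the longest protein-coding transcript, with the median of all genes tested in each GC bin as the grey line. The grey line climbs from −0.20 in the lowest bin to 0.38 between 58% and 62% GC, and most collagens lie under it, Col1a2 and Col8a2 among them.

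Ratios between chains of a trimer or a locus, which do not depend on how libraries were scaled, were compared in 6 pairs. None passed the test (two-sided exact permutation test over 56 splits, smallest possible p 0.0179, adjusted over the 6 pairs). The ratio of Col1a1 to Col1a2 was 0.627, 0.581 and 0.637 in core and 1.26, 0.691, 0.514, 0.739 and 0.669 in the R. intestinalis libraries. Core values were close together, and replicate 1 of R. intestinalis stood above all others. The log2 ratio was higher by 0.27 with R. intestinalis (exact permutation p = 0.464, adjusted 0.579). That difference was 0.0748 without R. intestinalis replicate 1 and 0.14 after the GC correction. Col4a1 to Col4a2 lay between 1.61 and 2.41 in core libraries, against 1.35 and 2.00 with R. intestinalis (log2 difference −0.23, exact permutation p = 0.25). Col5a1 to Col5a2 had a difference of 0.25, Col1a1 to Col3a1 of 0.30, Col4a5 to Col4a6 of −0.24 and Col6a1 to Col6a2 of −0.09, with exact permutation p from 0.304 to 0.607. Without R. intestinalis replicate 1 the difference was 0.10 for Col1a1 to Col3a1 and −0.0935 for Col4a5 to Col4a6. It was −0.0587 for Col4a1 to Col4a2 without core replicate 1 and 0.12 for Col5a1 to Col5a2 without core replicate 2. Col4a3 and Col4a4 were too low for a ratio.

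**Figure D5:**
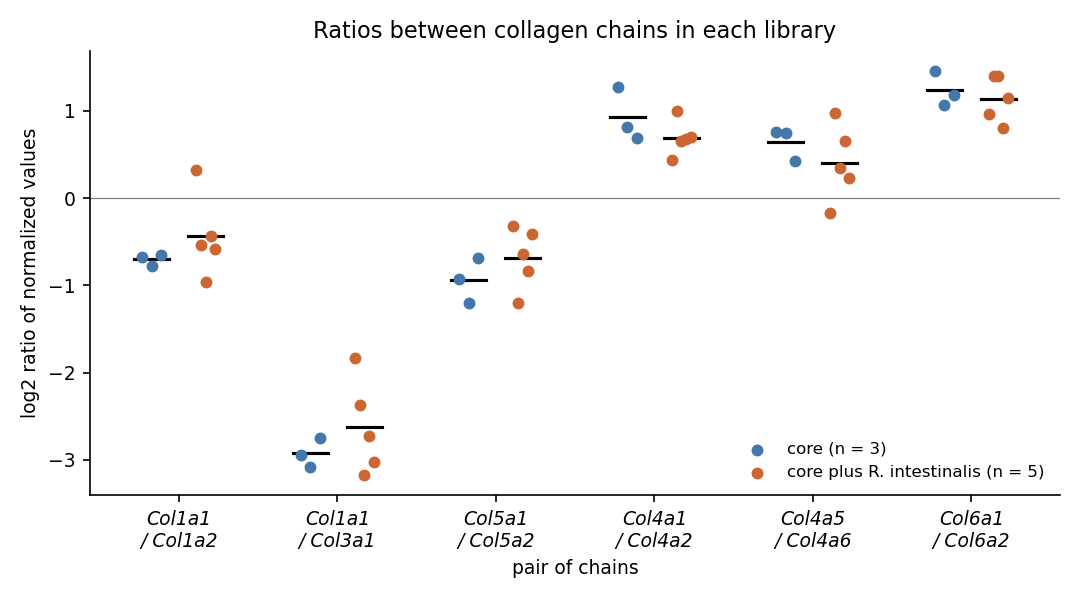
Log2 ratio of the normalized values of 2 collagen chains in each library (points) with group means (lines), core (n = 3) and R. intestinalis (n = 5), for 6 pairs. The groups overlap in every pair, and for Col1a1 over Col1a2 R. intestinalis replicate 1 has the highest ratio, 1.26 on the linear scale.

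Enzymes that trim and crosslink collagen outside the cell were listed together with the cleavage enhancers Pcolce and Pcolce2. All 9 tested members were below 0, with a median log2 difference of −0.44. The other 4 listed, Adamts3, Adamts14, Tll1 and Tll2, lay under the limit and were not tested. The median was −0.23 at a mean of at least 50, −0.29 without R. intestinalis replicate 3 and −0.65 without replicate 1 of that group. Of the 9, 3 were lower at an unadjusted p under 0.05 (3.69% of all genes tested) and 0 passed the adjusted threshold. Lox, lysyl oxidase, which starts the crosslinks of fibrillar collagen, was 27.0, 25.6 and 32.1 in core and 6.68, 14.02, 12.3, 14.2 and 12.8 in the R. intestinalis libraries. Loxl2, a related oxidase acting on type IV collagen, was 410, 441 and 320 in core and 312, 242, 155, 252 and 296 in the R. intestinalis libraries. Neither gene overlapped between groups. Pcolce2, an enhancer of procollagen cleavage, was the third such member (3.31% of all genes tested were lower and apart), but by 22.22 in core replicate 1 against 22.11 in R. intestinalis replicate 3, a gap smaller than 1 read. The log2 difference was −1.204 for Lox (SE 0.314, limma unadjusted p = 0.00303, adjusted p = 0.588). It was −0.66 for Loxl2 (SE 0.227, limma unadjusted p = 0.015, adjusted p = 0.588). After the GC correction 7 of the 9 were lower at an unadjusted p under 0.05 (4.57% of all genes), with a median of −0.71.

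For enzymes and chaperones that build collagen inside the cell, the median over 19 tested members was −0.10, with 11 below 0, and −0.0321 without R. intestinalis replicate 2. The 1 member lower at an unadjusted p under 0.05 made up 5.26% of the list, near the 3.69% of all genes tested. That gene was Serpinh1, the collagen chaperone HSP47, at 745 ± 161 (SD, n = 3) in core and 539 ± 122 (SD, n = 5) in the R. intestinalis libraries (log2 difference −0.47, limma adjusted p = 0.588). P4ha3, a prolyl hydroxylase subunit, averaged 28.8 and 16.1. After the GC correction 17 of 19 lay below 0, with a median of −0.21.

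Collagen receptors had a median of −0.18 over 9 members. Itga1, the collagen-binding integrin α1 of smooth muscle and fibroblasts, averaged 602 ± 135 (SD, n = 3) and 428 ± 70.9 (SD, n = 5) and was the 1 member with an unadjusted p under 0.05 (3.69% of all genes tested were lower at that level). Its partner Itgb1 averaged 5221 and 4050. Proteases and their inhibitors had a median of −0.20 over 9 members with 0 at that level, among them Timp4 (log2 difference −0.83, SE 0.557) and Ctsk (−0.40). The TGF-beta pathway, a main inducer of collagen genes, had a median of −0.19 over 13 members, again with 0, and its smallest p-values were those of Tgfb3 (−0.61) and Smad7, an inhibitor of the pathway (0.53).

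For other basement membrane proteins the median over 15 members was −0.06, against 0.0377 without core replicate 2, 0.0202 without R. intestinalis replicate 5 and −0.18 without core replicate 1. At an unadjusted p under 0.05, 1 was lower (3.69% of all genes tested) and 2 were higher (4.44%). Nid1, nidogen-1, which ties laminin to type IV collagen, averaged 440 ± 50.2 (SD, n = 3) in core and 322 ± 56.1 (SD, n = 5) in the R. intestinalis libraries. Lamb3, a laminin chain made by epithelium, averaged 294 ± 58.8 (SD, n = 3) and 565 ± 199 (SD, n = 5), with groups apart (2.53% of all genes tested were higher and apart; log2 difference 0.90, SE 0.255, limma adjusted p = 0.588).

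Markers of connective tissue and vessel cells also had log2 differences below 0 in most members (50.4% of all genes tested). None of the markers passed the adjusted threshold. The 8 fibroblast markers, none a collagen and none at 0 in every library, summed to between 2601 and 2949 in core. The sum was between 1379 and 2768 with R. intestinalis. Of 7 tested, 5 were below 0 and 2 were lower at an unadjusted p under 0.05. The 7 smooth muscle markers summed to between 128380 and 177520 in core and between 86234 and 153350 in R. intestinalis libraries, and 6 of 7 were below 0. Of the 7, 3 were lower at an unadjusted p under 0.05 (3.69% of all genes tested). Groups were apart in Tagln (log2 difference −0.70, limma unadjusted p = 0.00448) and Acta2 (−0.64, limma unadjusted p = 0.00485). The endothelial sum was 919 to 1204 and 709 to 940. Of the 7 endothelial markers, 5 were below 0 and 3 were lower at an unadjusted p under 0.05, with groups apart in Pecam1 (−0.43). The adipocyte markers had the lowest median of the marker lists, −1.46 (−1.43 after the GC correction), with 6 of 6 tested below 0. The 7 of them summed to between 1233 and 3009 in core, against 383 and 1770.5 with R. intestinalis. Lep was at 0 in R. intestinalis replicates 1 and 5. Of the 6 tested, 3 were lower at an unadjusted p under 0.05. Cfd, adipsin, was lower with groups apart (log2 difference −2.04), against 3.31% of all genes tested. R. intestinalis replicate 1 was the lowest library for the fibroblast sum and among the highest for smooth muscle and for Col1a1, Col4a1 and Col4a2. The epithelial sum was 75623 to 84942 and 72986 to 99617. Of the 7 epithelial markers, 6 were above 0. Vil1 was the 1 higher at an unadjusted p under 0.05 (4.44% of all genes tested). The part of these cell markers in the collagen differences was not tested.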

How the data were processed

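RNA of the proximal large intestine was measured in 8 libraries (core 3, core plus R. intestinalis 5), grouped by sample title. The deposited table gives a normalized expression signal per gene and library. Per the submitters' processing notes Bowtie2, RSEM 1.2.23 and mm9 were used, with no role or order; how the values were normalized is not stated in any source used. The authors also deposited a fold change (a ratio) and a posterior probability of differential expression (a score, called here at 0.95).

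Values were analysed as log2(value + 1) for genes with a mean of at least 10 (13020 genes), with limma 3.58.1 in R 4.3.3 (trended eBayes), Benjamini-Hochberg adjusted over all genes tested. Low values lay on 1 step per library (79.8% to 84.3% within 0.05 of a step), too few to recover whole reads. Tested on simulated data of this comparison (12925 genes), the test recovered 10.4% of genes changed 1.5-fold, 36.4% changed 2-fold and 87.1% changed 4-fold. There were 7 false calls, and moderate changes could be missed. The simulation drew each gene independently, without the spread that follows GC in the real libraries, so these rates may not hold for them. GC content and length came from the longest protein-coding GENCODE M21 transcript (98.8% of tested genes matched). The correction subtracted a lowess fit (span 0.3) of each library's deviations on GC content; it may also remove real differences that follow GC. Chain ratios were tested by exact permutation.

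Every member was described, with values per library for those with an unadjusted p under 0.05 or groups apart and for the 2 highest of each class, and from each pathway list the 2 members with the smallest p were named. Col1a1 was added after its values were seen, for its role beside Col1a2, as were the members given by a log2 difference alone. The members and lists were chosen with earlier results of these data known, and the promoter motifs after the values were seen.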

Additional observations from a re-analysis of the deposited data

Results flagged for a closer look

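Among the 5 R. intestinalis libraries, Col8a1 had 1 library far from the others. Replicate 5 was at 383.5, while the other 4 ran from 101 to 176, and the gap took up 0.734 of the whole range against a critical value of 0.71. This was the 1 such case among 32 sets of values checked (26 collagens and 6 chain ratios). Chance gives about 1 in 20 sets, so 1 case among 32 is no more than chance would give. Without that library the log2 difference of Col8a1 was −1.28, against −0.99 with it.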

How the results depend on the processing

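The count of 0 collagens past the adjusted threshold held in each alternative. The 5 lower collagens (unadjusted p under 0.05) became 11 with the GC correction and 3 with a replicate block by the number in the sample name, and ranged from 2 to 8 with 1 library left out. The 1 higher collagen became 0 without a filter, with a mean of at least 50, with quantile normalization, with the replicate block and with the GC correction, 2 with the block by sample name number, and ranged from 0 to 2 with 1 library left out. Collagens apart and lower numbered 6 with the GC correction (3.01% of all genes) and 3 to 6 with 1 library left out. Those apart and higher ranged from 0 to 2, and the upper ends came without core replicate 3. With a core library left out, groups come apart more easily in any gene. Shares over all genes were not taken for the settings with 1 library left out. The median of all collagens was −0.45 with the GC correction. The median of the other chains (−0.27) was 0.0412 without a filter and −0.353 to 0.0714 with 1 library left out. The crosslinking list's median was −0.71 and the TGF-beta list's −0.0539 with the GC correction, and the receptor list's was −0.36 at a mean of at least 50 and −0.302 to 0.0414 with 1 library left out. The log2 ratio of Col5a1 to Col5a2 turned to −0.0586 with the GC correction. That of Col6a1 to Col6a2 was 0.0165 with the replicate block and −0.178 to 0.0175 with 1 library left out. Col4a2 ran from −0.347 to 0.0208 with 1 library left out, Col13a1 was −0.46 with the replicate block and −0.07 with the GC correction, and Col6a1 −0.0833 with the latter. The cause was not tested. The deviations of libraries with the same replicate number correlated at −0.12, −0.53 and −0.07, and not every sample correlated best with its own number. By the number in the sample name they correlated at −0.01, −0.41 and −0.49. Deviations from group means over so few libraries cannot settle whether samples were paired. With the replicate block 5 collagens were lower, as without it. The ratio of Col6a3 to Col6a1 was not run.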
